A study of Arabidopsis thaliana with 4 samples.

Results

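The comparison of Arabidopsis roots that had grown for 6 d beside the fungus Piriformospora indica with mock-treated roots of the same age is described here, gene by gene and by gene function, with weight on moderate differences and on genes with a lower signal in exposed roots. Each probe set of the ATH1 array is a group of short probes that together read 1 gene or, in some cases, several. All probe sets were taken whose brighter array of the 6 d pair lay above a floor signal of 22.2, for which the 40th percentiles of the arrays were averaged as log2 values. This left 14029 of the 22746 probe sets, with the dimmest one inside at a signal of 22.2 on its brighter array and the next one outside at 22.1. The labels divide 4 arrays into P. indica 2 d, mock 2 d, P. indica 6 d and mock 6 d, with 1 array for each. All seedlings were wild type of the ecotype Columbia-0, had an age of 12 d at transfer (48 h in the cold, then 10 d in continuous light) and were laid at 3 cm from an agar plug of 5 mm, either with hyphae of P. indica or without hyphae (mock). Seedlings of the 2 d arrays are labelled as 12 d old and those of the 6 d arrays as 16 d old. At 2 d fungus and root are still apart, and at 6 d the growing hyphae have reached the root, so the 6 d pair addresses the response after contact.

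The arrays limit what can be read from the values. With 1 array per condition there is no error, no test and no p-value, and each difference is given as a size. The paper speaks of several independent experiments, and it stays unstated whether RNA or values of these were pooled. RNA isolation is described in the labels for roots and shoots, the tissue is labelled as root, and a free description of embryos matches nothing in the paper. A signal is relative to total RNA, so fewer cells of a type and less RNA per cell cannot be told apart. The 75th percentiles of the 4 arrays differed by 0.025 on the log2 scale, and the median log2 ratio of 18 hybridization control probe sets within the 6 d pair was 0.10. The 3' signal divided by the 5' signal is a measure of RNA length. For actin it was 29.4 on the P. indica array and 34.2 on the mock array at 6 d, and 6.54 and 7.99 at 2 d. For GAPDH it was 1.62 and 1.58 at 6 d, and 0.74 and 0.73 at 2 d. The median log2 signal of the hybridization controls was 7.57 and 7.47 at 6 d, and 5.55 and 5.5 at 2 d. The 6 d arrays therefore stand apart from the 2 d arrays, but not from each other, and ratios were formed within a time point.

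The root label was checked with marker genes, of which the annotation used here names 3 of 24 for root and 5 of 18 for green tissue. The root markers that could be read were the beta-glucosidase gene PYK10 and the root hair expansin genes EXPA7 and EXPA18. Their summed signal was 4829 in exposed and 4243 in mock roots at 6 d, and none differed by more than 1.5-fold. Most of this sum is PYK10, with 4468 and 3864, while EXPA7 had 163 and 150 and EXPA18 had 198 and 229. All 5 named markers of green tissue were above the floor at 6 d too. Their summed signal was 1026 in exposed and 697 in mock roots at 6 d, against 391 and 513 at 2 d. The part of green tissue in the other results was not tested.

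P. indica is a basidiomycete that colonizes roots of many plants and promotes their growth. Root cells perceive fragments of fungal cell walls with surface receptors, and this is followed by a rise of Ca2+ in the cytosol, by reactive oxygen species and by transcription of defense genes. Products of such genes are secreted peptides, chitinases, which cut chitin of the fungal wall, peroxidases and extensins, which change the plant wall, and enzymes that make antimicrobial compounds such as coumarins.

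Most genes had nearly the same signal in exposed and mock roots. The log2 ratio of exposed over mock lay within 1.5-fold for 96.4% of the probe sets, with a median of -0.02, and 95% of them lay between -0.51 and 0.56. More than 1.5-fold higher in exposed roots were 321 probe sets (2.29%), and 191 were more than 1.5-fold lower (1.36%). The asymmetry became larger with the size of the difference. More than 2-fold higher were 64 probe sets (0.456%) and more than 2-fold lower were 6 (0.0428%), while 15 were more than 3-fold higher (0.107%) and 0 more than 3-fold lower. Thus 257 of the 321 higher and 185 of the 191 lower probe sets differed by 1.5-fold to 2-fold only. The paper, with its own processing, reports more genes past its 3-fold limit at 6 d in both directions. Why the counts differ was not tested.

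The balance of both directions changed with brightness. Among 3905 probe sets with a mean 6 d signal of up to 50, 3.64% were more than 1.5-fold higher and 2.74% more than 1.5-fold lower. Among 2196 with a mean of 200 to 500 these shares were 1.73% and 0.592%, and among 1310 above 500 they were 1.45% and 0.0763%. Differences of 1.5-fold were nearly as frequent downward as upward among the dimmest probe sets, and 20 probe sets remained above 500, of which 19 were higher and 1 was lower. In the dimmest class 95% of the log2 ratios lay between -0.60 and 0.67, and in the brightest between -0.31 and 0.46. A moderate difference of a dim gene therefore has less weight than the same difference of a bright gene.

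**Figure D1:**
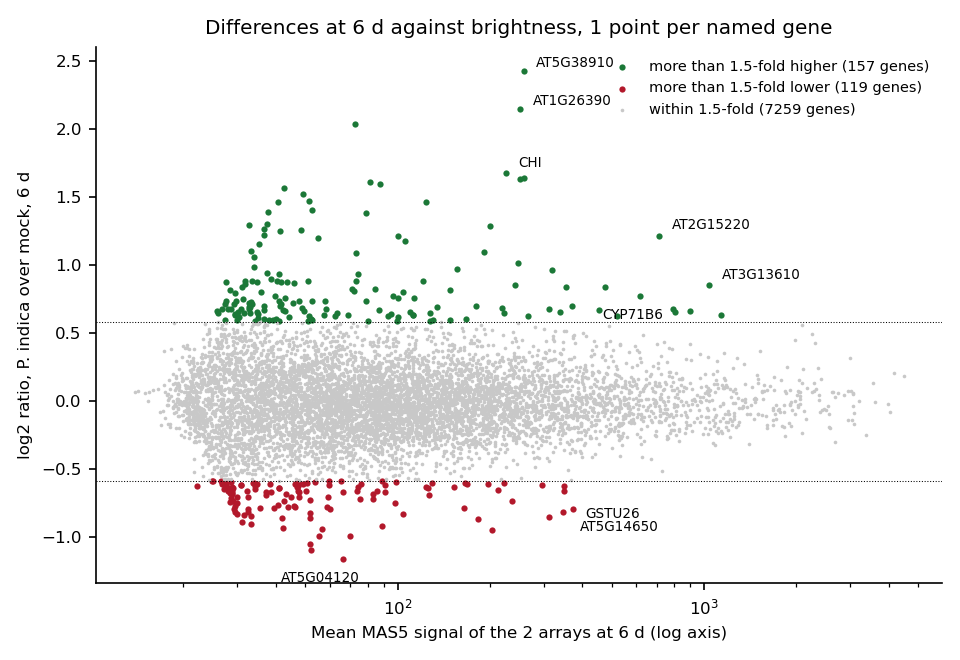
Log2 ratio of P. indica over mock at 6 d (vertical axis) against the mean MAS5 signal of both 6 d arrays (log axis), with 1 point for each of 7535 named genes. Dotted lines mark 1.5-fold. Of the 157 genes more than 1.5-fold higher, 23 have a mean signal of at least 10 times the floor. Of the 119 more than 1.5-fold lower 7 do, and of all 7535 genes 1431.

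Names of genes were available for a part of these probe sets only. For 8 of 25 genes that the paper names for 6 d or for both times, a named probe set exists here. The smallest ratio of these was that of AT4G39830, which the paper lists as up-regulated at 6 d. It had 29.6 in exposed and 11.5 in mock roots, which lies under the floor, and was at least 1.33-fold higher. Of the 321 higher probe sets 157 stand for a named gene, and of the 191 lower ones 119. With 1 probe set per gene, 7535 named genes were counted at 6 d, of which 2.08% were more than 1.5-fold higher and 1.58% more than 1.5-fold lower. These shares are the background for each count of genes below. The members of 49 gene lists, drawn up from gene names and locus codes, include 683 named genes. The plot of gene lists shows the 33 lists with at least 4 counted members, of which 11 held 0 genes past 1.5-fold. The median log2 ratio of all counted genes was -0.02, and counts for a list rest on its counted members only.

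**Figure D2:**
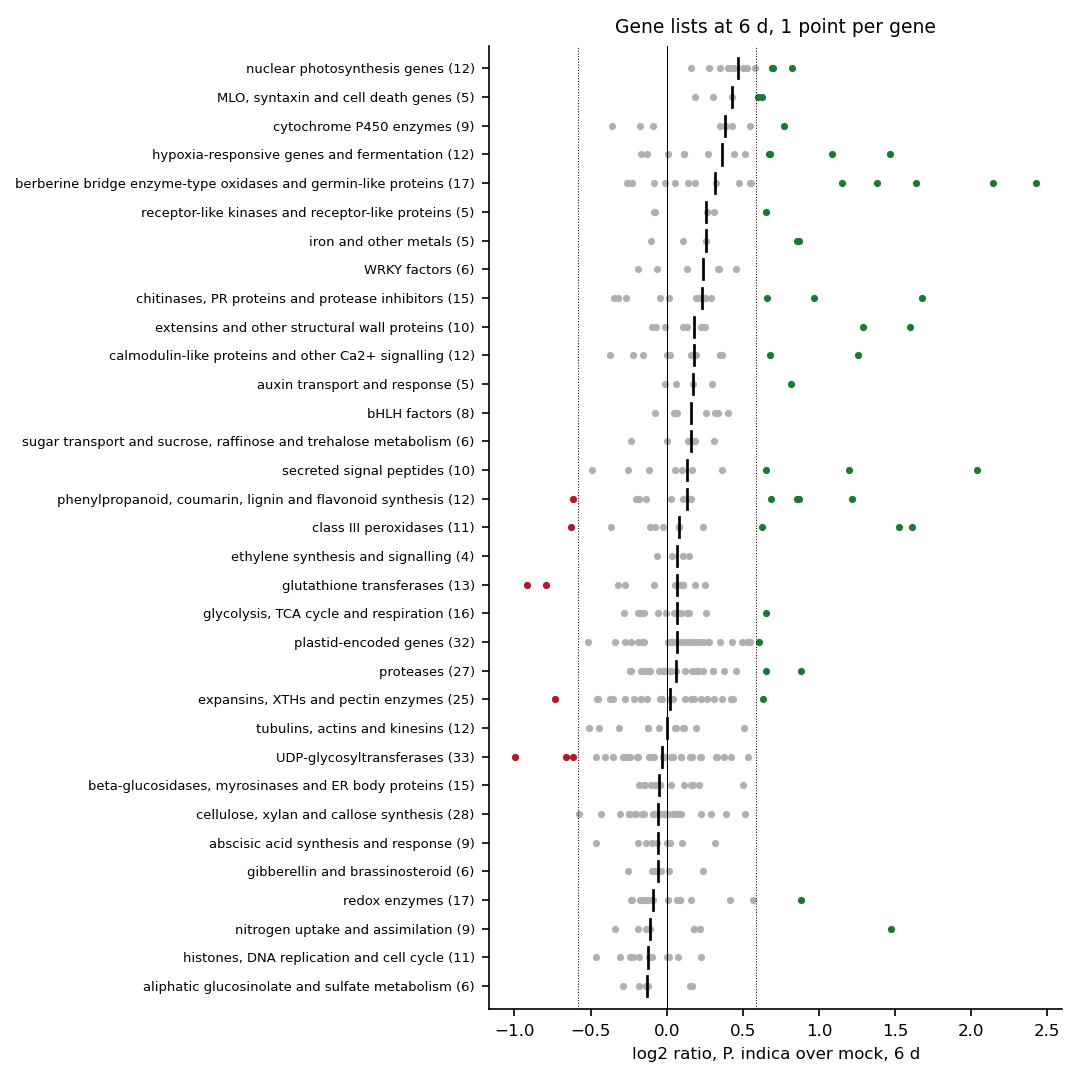
Log2 ratio of P. indica over mock at 6 d for each counted gene (point) of 33 gene lists, with the number of counted genes in brackets and the list median as a black bar. Green points are more than 1.5-fold higher, red points more than 1.5-fold lower and grey points within 1.5-fold. The oxidase and germin-like list holds the highest points, and all 12 nuclear photosynthesis genes lie above 0.

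Past 3-fold, 8 of the 15 higher probe sets have a gene name, and several of these genes belong to families of wall and apoplast proteins. AT5G38910 belongs to the germin-like proteins, a family with oxidases of the wall, and had a signal of 436 in exposed and 81.1 in mock roots at 6 d, and 547 in exposed and 5.9 in mock roots at 2 d. It was 5.37-fold higher at 6 d, the largest ratio of all named genes. The mock signal of 2 d lay under the floor. Signals of 2 d and 6 d come from arrays that stand apart in the actin ratio, which limits every comparison of single signals across times. AT5G38900, the next gene on the chromosome, which the paper lists as a DSBA oxidoreductase, had 146 in exposed and 64.7 in mock roots at 6 d (2.26-fold), and 176 and 29.6 at 2 d.

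A chromosomal group of berberine bridge-type oxidase genes, whose products use FAD, had higher signals in exposed roots. AT1G26390 had 410 in exposed and 92.7 in mock roots (4.43-fold), AT1G26380 had 380 and 122 (3.11-fold), and AT1G26410 had 114 and 43.8 (2.61-fold). AT1G26420 had 49.4 in exposed and 21.4 in mock roots, which lies under the floor, and was at least 2.22-fold higher. All 4 mock signals were higher at 6 d than at 2 d, where they were 13.5, 15.4, 5.1 and 6.9 in the same order and thus below the floor. Of 29 named genes of this type and germin-like genes 17 were counted, of which 5 were more than 1.5-fold higher and 0 more than 1.5-fold lower. The other 12 counted genes ranged from -0.26 to 0.55 on the log2 scale, so the group was split. The list median was 0.32 over the counted genes and 0.00 over all 29, with those under the floor taken as equal.

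Extensins, hydroxyproline-rich proteins that crosslink in the plant wall, were split in a similar way. AT1G26240 had 132 in exposed and 43.5 in mock roots at 6 d (3.03-fold), and its neighbour AT1G26250 had 284 and 116 (2.44-fold). The other 8 counted members stayed within 1.5-fold, with log2 ratios up to 0.25. At 2 d, in contrast, 6 of the 10 were more than 1.5-fold higher and all 10 had a ratio above 0, and for 9 of the 10 the 2 d ratio exceeded that of 6 d. HRGP1 is an example. Its signal was 530 in exposed and 535 in mock roots at 6 d, and 468 and 304 at 2 d. The probe sets of HRGP1, AT1G23720, AT5G06630 and AT4G08410 carry a suffix for cross-hybridization. Whether they read separate genes was not tested, which limits the 2 d counts.

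Some of the higher genes lie side by side on the chromosome. Besides the oxidase and extensin genes and AT5G38900 with AT5G38910, those within 2 protein-coding genes of each other in the TAIR10.1 gene order were AT2G43570 with AT2G43590, YLS5 with AT2G38870 and AT1G52800 with AT1G52820. Whether probes of neighbouring genes of 1 family share signal was not tested.

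Chitinases cut chitin, and 3 genes of this kind were more than 1.5-fold higher. CHI (AT2G43570) had 344 in exposed and 108 in mock roots at 6 d (3.20-fold), AT2G43590 had 424 and 217 (1.96-fold), and AT1G02360 had 415 and 263 (1.58-fold). At 2 d the ratios of these 3 genes were 6.11-fold, 2.93-fold and 1.83-fold. They were the only ones of 15 counted genes of chitinases, pathogenesis-related proteins and protease inhibitors past 1.5-fold in either direction, and 11 had a ratio above 0 and 4 below. Among the other bright members, the osmotin gene OSM34 (2278 in exposed and 1936 in mock roots) and the defensin-like genes LCR68 and LCR69 had log2 ratios between 0.23 and 0.25, PDF2.5 had 441 and 436, and AT2G43535 had 563 in exposed and 677 in mock roots.

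Class III peroxidases, which use H2O2 to crosslink or loosen the wall, went in both directions. AT5G39580 had 122.7 in exposed and 40.2 in mock roots (3.05-fold), and AT1G14550 had 72.7 and 25.3 (2.87-fold). AT5G64120 (PRX71) had 324 and 210, a moderate difference of 1.54-fold. AT5G19890 was 1.55-fold lower, with 120 in exposed and 186 in mock roots, and was also lower at 2 d, with 81.0 and 109. The median over the 11 genes counted in the peroxidase list used here was 0.08.

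**Figure D3:**
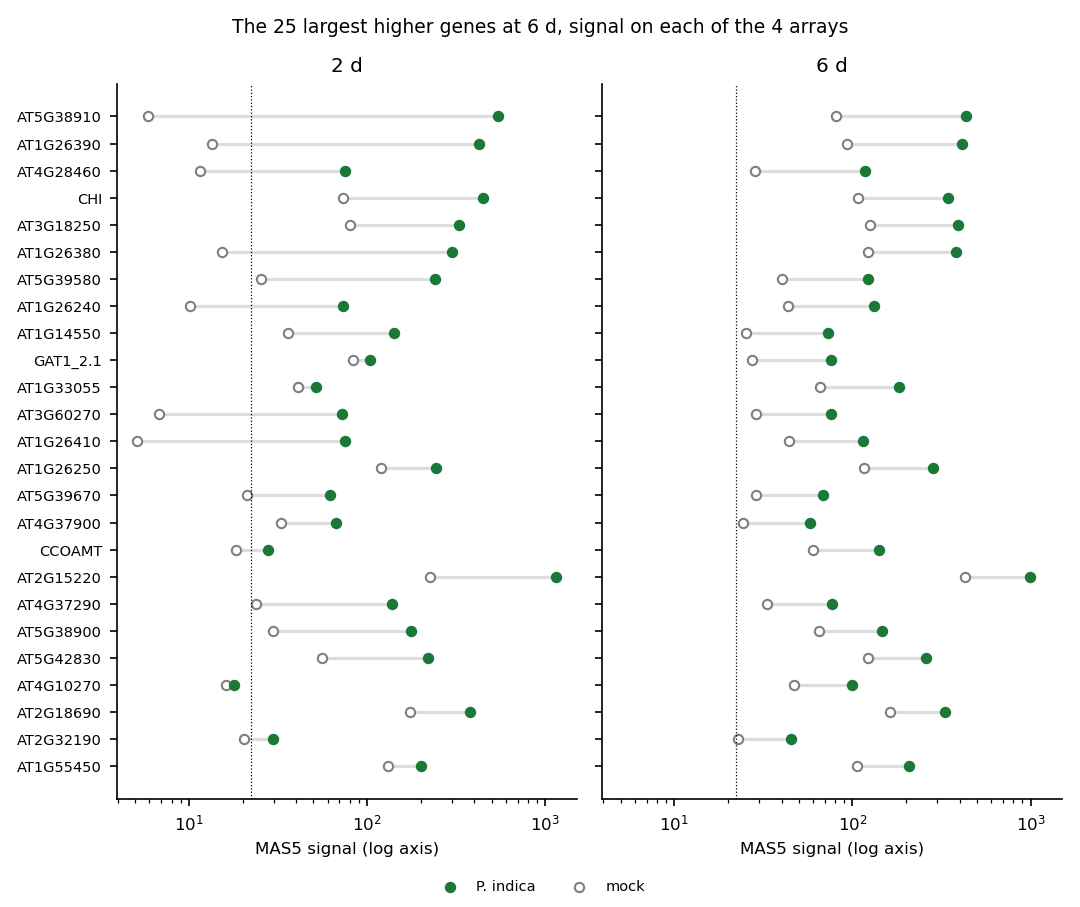
MAS5 signal (log axis) on the P. indica (filled) and mock (open) array at 2 d (left) and 6 d (right) for the 25 genes with the largest higher ratio at 6 d and both 6 d arrays above the floor (dotted line). Of these genes 24 were counted at 2 d, and 20 were more than 1.5-fold higher there, while the open points of 19 genes lie further to the right at 6 d.

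Secreted peptides included 2 genes of the PAMP-induced precursor type. AT4G28460 had a signal of 117 in exposed and 28.5 in mock roots at 6 d (4.1-fold, or 2.04 on the log2 scale, against 0.93 if the 60th percentile is the floor), and AT4G37290 had 76.5 and 33.3 (2.30-fold). CLE44, which codes for a peptide that controls division in the vascular cambium, had 42.6 and 27.1 (1.57-fold). At 2 d CLE44 had 23.1 in exposed and 16.9 in mock roots and so lay near the floor. Members of the RALF family, peptides that act on wall sensing and pH, did not pass 1.5-fold, and the lowest was RALFL24, with 120 in exposed and 169 in mock roots.

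Genes of immune signalling, and others linked to immunity, differed by small to moderate amounts. The EF-hand gene AT5G39670, which the paper lists as Ca2+-binding, had 68.4 in exposed and 28.6 in mock roots at 6 d (2.39-fold). CML38, a calmodulin-like Ca2+ sensor, had 35.5 and 21.6 (at least 1.60-fold higher), against 20.6 and 45.5 at 2 d, where it was lower in exposed roots. The glutaredoxin gene GRX480, which responds to salicylic acid, had 65.9 in exposed and 35.8 in mock roots (1.84-fold). SAG101, a partner of the immune regulator EDS1, had 36.2 and 23.9 (1.51-fold). YLS5, which the paper lists as a protease, had 631 and 408 (1.54-fold). WRKY factors remained below 1.5-fold: of 6 counted genes 4 were above and 2 below 0, and the largest ratio was that of WRKY6, with 100 in exposed and 73.1 in mock roots (1.37-fold). The receptor kinase gene AT1G51890 had 134 and 85.2 (1.58-fold), whereas the wall sensor genes FER and THE1 had log2 ratios of -0.08 and -0.07.

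Some genes of coumarin synthesis and the lignin gene CCOAMT had higher signals, while some glycosyltransferase genes for related compounds had lower ones. F6'H1 (AT3G13610), the enzyme of the step to the coumarin scopoletin, had 1341 in exposed and 742 in mock roots at 6 d, and 1232 and 646 at 2 d. With 1.81-fold it was among the 10 largest higher ratios of bright genes, and its signal was high on all 4 arrays. AT3G12900 had 59.3 in exposed and 32.4 in mock roots (1.83-fold). CCOAMT, a caffeoyl-CoA methyltransferase gene, had 140 and 60.3 at 6 d (2.33-fold), against 27.9 and 18.3 at 2 d. DFR, the dihydroflavonol reductase gene of anthocyanin synthesis, had 60 and 37.3 (1.61-fold) at 6 d and was below the floor at 2 d. Other phenylpropanoid genes differed little: HCT had 727 in exposed and 712 in mock roots, CCR2 had 79.0 and 70.9, and AT1G55290 had 34.9 and 38.3. Of 12 counted genes of phenylpropanoids 4 were more than 1.5-fold higher and 1 more than 1.5-fold lower.

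The lower gene of this list was UGT78D2, which attaches glucose to flavonols and anthocyanidins. It had 234 in exposed and 358 in mock roots at 6 d (1.53-fold lower), and 210 and 387 at 2 d. UGT84A1, a glucosyltransferase gene for hydroxycinnamic acids, had 37.0 and 73.7 at 6 d (1.99-fold lower), and 55.2 and 97.8 at 2 d. AT2G22590 had 66.6 in exposed and 105 in mock roots at 6 d (1.58-fold lower), and 37.8 and 138 at 2 d. All 3 were therefore lower at both times by more than 1.5-fold. They were the only ones of 33 counted UDP-glycosyltransferases past 1.5-fold at 6 d, and 0 were higher. The 33 counted of 52 named genes had a median of -0.03, with 14 genes above and 19 below 0. UGT73D1 had 93.1 in exposed and 69.5 in mock roots.

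Among other metabolic enzymes, CYP71B6 had 778 in exposed and 456 in mock roots (1.71-fold), the only one of 9 counted cytochrome P450 genes past 1.5-fold. GAT1_2.1, a glutamine amidotransferase gene, had 75.9 and 27.3 (2.78-fold) at 6 d. Its 2 d signals were 103 and 83.6, so that the mock signal at 6 d was the low one of the 4. It was the only one of 9 counted genes of nitrogen uptake and assimilation past 1.5-fold. The subtilase gene SBT3.5 had 158 in exposed and 85.6 in mock roots (1.84-fold). AT1G52820 had 312 and 172 at 6 d (1.81-fold), and with 21.8 and 7.9 it was below the floor at 2 d.

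Several of the largest higher genes are given by their locus code, since no role is given for them here. AT3G18250 had 392 in exposed and 126 in mock roots at 6 d (3.12-fold), and 329 and 80.1 at 2 d. AT2G15220 had 996 and 428 at 6 d, and 1155 and 224 at 2 d, and was the brightest named gene past 2-fold. AT5G42830, which the paper lists as a transferase, had 260 in exposed and 122 in mock roots, and AT2G18690 had 330 and 163. These 4 genes were more than 1.5-fold higher at 2 d too. For other genes the mock signal lay under the floor at 6 d, so that only a lower limit exists. The largest of these were AT2G23270, at least 2.96-fold higher, and AT3G28510, at least 2.76-fold higher. In the other direction AT3G12170 was at least 1.86-fold lower and AT1G49650 at least 1.78-fold lower.

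Glutathione transferases conjugate toxic compounds with glutathione, and 2 of 13 counted genes were more than 1.5-fold lower. GSTU26 had 273 in exposed and 473 in mock roots at 6 d (1.73-fold lower), and 268 and 336 at 2 d. ATGSTF13 had 61.6 and 116 at 6 d (1.89-fold lower), and 100 and 119 at 2 d. The other 11 counted members lay between -0.32 and 0.25 on the log2 scale. Among the 13, 0 were more than 1.5-fold higher. ERD11 and GSTU10, which the paper lists among genes up-regulated at both times, are not among the 13.

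Of 12 counted genes of low oxygen response and fermentation 4 were more than 1.5-fold higher at 6 d, one of them CML38, and 0 more than 1.5-fold lower. AT1G33055 had 182 in exposed and 65.6 in mock roots (2.77-fold), AT4G10270 had 99.4 and 46.8 (2.12-fold), and AT4G27450 had 384 and 241 (1.60-fold). AT1G19530 had 280 and 197 at 6 d, but 88.0 and 288 at 2 d, where it was 3.27-fold lower. The 2 brightest members were slightly lower, AT5G66985 with 400.4 in exposed and 438 in mock roots, and the pyruvate decarboxylase gene PDC2 of fermentation with 374 and 420. Of the 10 counted at 2 d, 2 had a ratio above 0 there, and 9 had the larger ratio at 6 d. The list median was 0.36 at 6 d and -0.22 at 2 d, and at 6 d it was 0.11 over the 9 genes with both arrays above the floor.

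Every one of 12 counted nuclear photosynthesis genes was brighter on the exposed array at 6 d. PRK, the phosphoribulokinase gene of the Calvin cycle, had 90.5 in exposed and 51.2 in mock roots (1.77-fold). PSAN, a subunit gene of photosystem I, had 223 and 138 (1.62-fold), and LHCB4.2, a chlorophyll-binding protein gene, had 166 and 103 (1.61-fold). These 3 passed 1.5-fold, and the lowest ratio was that of PSBY, with 152 and 136. At 2 d 9 of the 12 had a ratio below 0, for example PSBW, with 72.5 in exposed and 115 in mock roots, and the median was -0.19 there and 0.47 at 6 d. All 12 had the larger ratio at 6 d, whereas over all probe sets counted at both times 51.0% did. Plastid-encoded genes had a median of 0.07 at 6 d and -0.18 at 2 d. Of 32 counted at both times 27 had the larger ratio at 6 d, and psbL was the only one past 1.5-fold at 6 d, with 62.9 in exposed and 41.4 in mock roots. The bright gene rpoA, for a subunit of the plastid RNA polymerase, was lower, with 601 and 859. CYTC6A, whose protein lies in the chloroplast, was the only gene past 1.5-fold in the list of glycolysis and respiration, with 40.3 and 25.7. The green-tissue markers given above belong to the nuclear photosynthesis genes and move in the same direction.

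Counts for genes of growth and wall synthesis were near the background of 2.08% higher and 1.58% lower. Of 28 counted genes of cellulose, xylan and callose synthesis 0 passed 1.5-fold, and the median was -0.06. Likewise 0 of 11 histone, replication and cell cycle genes and 0 of 12 tubulin, actin and kinesin genes passed it. Among 25 expansins, xyloglucan endotransglucosylases (XTH) and pectin enzymes, XTH18 was 1.66-fold lower at 6 d, with 178 in exposed and 295 in mock roots, and had 375 and 327 at 2 d. EXLA3 was 1.55-fold higher, with 35.9 and 23.2. Among hormone lists, 2 of 2 counted genes of salicylate (GRX480 and SAG101, given above) and 1 of 5 of auxin were more than 1.5-fold higher. SAG101 passed it narrowly, with a mock signal of 23.9 near the floor of 22.2. The mean 6 d signals of GRX480 and of the auxin gene AT1G43040 were low too, at 50.85 and 28.3. In the lists of abscisic acid, ethylene, and gibberellin and brassinosteroid, 0 of 9, 0 of 4 and 0 of 6 passed 1.5-fold. For jasmonate 1 gene was counted, OPCL1, with 60.5 in exposed and 81.7 in mock roots. Of 7 named cytokinin genes 0 were counted. The gene AT1G43040 (SAUR58), of an auxin-responsive family, had 39.1 in exposed and 17.5 in mock roots and was at least 1.76-fold higher.

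Most of the largest lower ratios belong to genes for which no role is given here. AT5G04120 had 41.0 in exposed and 91.7 in mock roots (2.24-fold lower), AT3G08780 had 33.3 and 71.3 (2.14-fold lower), and AT2G43850 had 33.7 and 69.9 (2.07-fold lower). These were the 3 named genes past 2-fold. At 2 d AT3G08780 had 97.7 in exposed and 99.5 in mock roots, and AT2G43850 had 45.2 and 49.2. AT5G04120 had 36.9 and 21.3 there, so its order was the opposite one. Among the 20 largest lower genes the brightest were AT5G14650, with 251 in exposed and 442 in mock roots (1.76-fold lower), AT2G39960, with 223 and 401 (1.80-fold lower), and AT3G52030, with 139 and 269 (1.93-fold lower). NOB1 (AT5G41190), named after a factor of ribosome assembly in yeast, had 130 and 237 (1.83-fold lower), and the clock gene GI had 58.4 and 90.3 at 6 d (1.55-fold lower) and 87.0 and 137 at 2 d. For 7 of the 119 lower genes the mean 6 d signal was at least 10 times the floor, against 23 of the 157 higher genes. Over all 7535 counted genes it was so for 1431, a larger share than in either direction. Of the gene lists, 8 genes were more than 1.5-fold lower and 40 more than 1.5-fold higher, so most genes of both directions belong to no list used here.

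**Figure D4:**
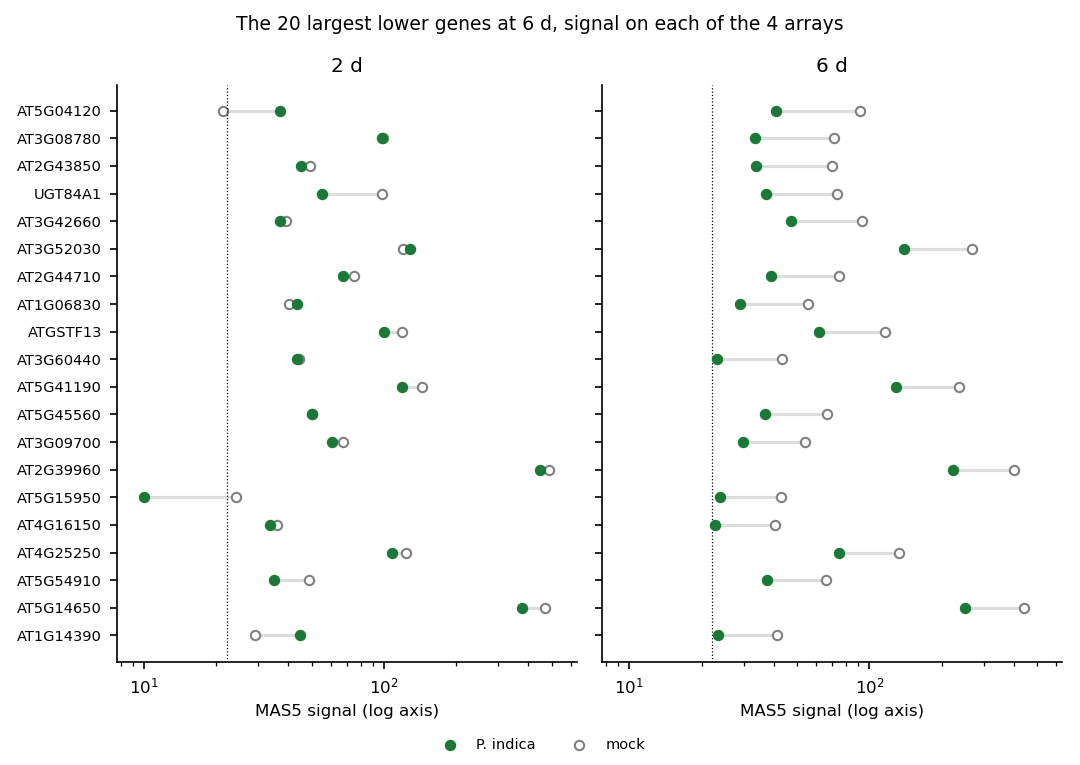
MAS5 signal (log axis) on the P. indica (filled) and mock (open) array at 2 d (left) and 6 d (right) for the 20 genes with the largest lower ratio at 6 d and both 6 d arrays above the floor (dotted line). At 2 d 17 of the 20 differed by no more than 1.5-fold, 1 was lower and 2 were higher.

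The 2 d pair shares no array with the 6 d pair, and it was used to see which of the 6 d differences appeared on separate arrays. The larger a higher ratio was at 6 d, the more often it was also found at 2 d. Past 3-fold at 6 d, all 15 of 15 were also past 1.5-fold at 2 d, as were 38 of 45 between 2-fold and 3-fold and 61 of 231 (26.4%) between 1.5-fold and 2-fold. Over all 13538 probe sets counted at both times, 2.78% were more than 1.5-fold higher at 2 d and 2.39% more than 1.5-fold lower. Of the 187 probe sets more than 1.5-fold lower at 6 d and counted at 2 d, 25 (13.4%) were more than 1.5-fold lower there and 6 more than 1.5-fold higher. Of the 6 more than 2-fold lower, 0 were more than 1.5-fold lower and 2 more than 1.5-fold higher at 2 d. A difference seen at 6 d only can be one of that time or one of a single array, and these cannot be told apart.

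Brightness changed this share. Of 55 probe sets with a mean 6 d signal above 200 that were more than 1.5-fold higher at 6 d, 29 (52.7%) were so at 2 d. Of 14 more than 1.5-fold lower, 5 (35.7%) were so, against 2.2% higher and 1.3% lower among all probe sets of this brightness. Across the 13538 probe sets the correlation of the 2 d and 6 d log2 ratios was r = 0.33, a description over genes, which are not independent.

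**Figure D5:**
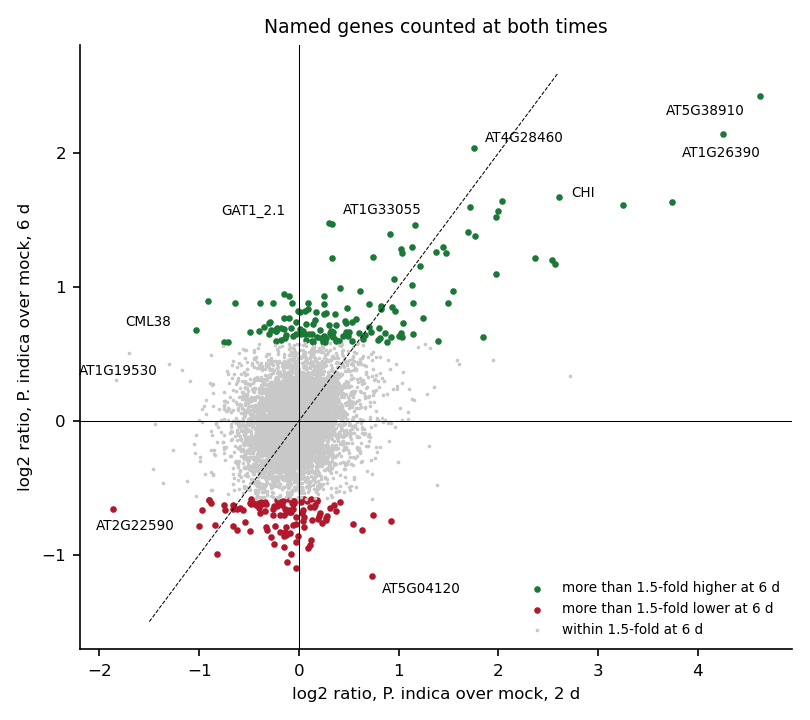
Log2 ratio of P. indica over mock at 6 d (vertical axis) against 2 d (horizontal axis) for named genes counted at both times, with signals under the floor set to the floor and the dashed line marking equal ratios. Genes with the largest ratios at 6 d lie far to the right, while many genes between 1.5-fold and 2-fold and most of the lower genes lie near 0 at 2 d.

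The higher genes at 6 d did not form a single pattern over time. Of 24 of the 25 largest higher genes that were counted at 2 d, the ratio of 2 d was the larger one for 16, and in 19 of the 25 the mock signal of 6 d exceeded that of 2 d, by more than 1.5-fold in 13. Over all 14029 probe sets the mock signal of 6 d was the higher one for 7166, by more than 1.5-fold for 958. The exposed signal was more than 1.5-fold lower at 6 d for 3 and more than 1.5-fold higher for 7, against 1290 and 1374 of all 14029. AT5G38910 and CHI belong to those whose larger ratio was that of 2 d. In GAT1_2.1 and AT1G33055 the larger ratio was that of 6 d. For the probe sets between 1.5-fold and 2-fold higher, the ratio was larger at 6 d for 185 of 231 (80.1%), a share that the choice of these probe sets at 6 d favours.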

How the data were processed

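The authors deposited MAS5 signals, which are linear array intensities, for 22810 probe sets on 4 arrays. MAS5 is named in the submitters' processing notes with no version, and the paper's analysis used ROBIN and MapMan, and how these values were normalized there stays unstated. From these intensities 64 control probe sets were left out, signals under the floor of 22.2 were set to it, and log2 ratios of P. indica over mock were formed within each time point. Probe sets were counted if the brighter array lay above the floor. Where the dimmer array lay under it, the fold is written as "at least". No p-value was computed, since there is 1 array per condition. The number of arrays limits the precision.

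The platform annotation, updated to TAIR10.1 through Entrez identifiers, gave 1 gene for 13484 probe sets and several genes for 503. The others have no name here. Where a gene has more than 1 probe set, the brightest on average was taken. Among the genes chosen by the rule below, AT2G15220, TBL32 and AT4G08410 carry a suffix for cross-hybridization.

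Named genes were the 25 largest higher and 20 largest lower genes for which both 6 d signals exceeded the floor, the 5 largest bounds per direction, the 10 largest per direction with a mean signal of at least 10 times the floor, genes the paper names, up to 5 members of each list and cell type markers. Further list members are named to give the range of a list. The comparison, the members and the lists were chosen with earlier results of these data known. The lists were trimmed of wrong name matches by annotation, in 8 cases after their values were seen. AT5G04120 was left out of the list of glycolysis because its role was unsure. Counting was tested on simulated data with changes placed only in probe sets well above the floor, so the test does not cover dim ones.

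Alternatives were a lower floor (20th percentile), a higher floor (60th percentile), none at all, quantile normalization, a loess fit within the pair (span 0.3), median centring, 32 added to every signal, and probe sets of 1 gene without suffix. Python 3.11.15, numpy 2.4.6, pandas 2.3.3, statsmodels 0.14.6 and matplotlib 3.10.9 were used. Promoter sequences were not analysed here.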

Additional observations from a re-analysis of the deposited data

Results flagged for a closer look

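For 3 named genes the 2 d and the 6 d pair differed by more than 1.5-fold in opposite directions, and this difference between the times was not tested. For CML38 the log2 ratios were 0.68 (6 d) and -1.04 (2 d), with 1 array of each pair under the floor. For AT1G14390 they were -0.82 (6 d) and 0.64 (2 d), and for AT5G04120 they were -1.16 (6 d) and 0.73 (2 d, mock under the floor). Among all genes with a name, 9 were opposite in this way, of which 5 were higher and 4 lower in exposed roots at 6 d.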

How the results depend on the processing

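The counts past a fold limit depend on the floor. In the order more than 1.5-fold higher, 1.5-fold lower, 2-fold higher, 2-fold lower and 3-fold higher, the numbers of probe sets were 321, 191, 64, 6 and 15. The lower floor (20th percentile) gave 1351, 1028, 404, 244 and 58, and the higher floor (60th percentile) gave 144, 45, 27, 0 and 8. Adding 32 to all signals instead gave 129, 26, 26, 0 and 3. Without a floor 457 and 309 were past 1.5-fold, and the others were 115, 35 and 32. Probe sets of 1 gene without suffix, of which there are fewer, gave 156, 119, 32, 3 and 8. Quantile normalization, the loess fit and median centring gave 324, 341 and 345 more than 1.5-fold higher, and 182, 162 and 165 more than 1.5-fold lower. The higher probe sets made up 62.7% of those past 1.5-fold, against 83.2% with 32 added, 76.2% with the higher floor and 56.8% with the lower one.

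Of the named genes, 227 in all, 167 had a value with the higher floor and 224 without suffix. A change of direction was looked for only in genes past 1.5-fold, and 0 of these were reversed. A floor or an added constant cannot change a direction, so for these alternatives the 0 was fixed in advance. The size moved by more than 0.233 on the log2 scale, taken as the spread of all ratios, for 57 genes with 32 added and for 28 with the higher floor, where AT1G14550 had 0.24, GAT1_2.1 had 0.31, AT5G39670 had 0.16, UGT84A1 had -0.26 and AT3G08780 had -0.22. The median of the cytochrome P450 list was 0.38, and -0.01 with the lower floor, where more dim members enter. That of the hypoxia list was 0.36, and 0.59 and 0.11 with the lower and the higher floor. No paired analysis was possible because each condition has 1 array. The planned shares of promoter motifs were not run. Signals near the floor limit the moderate and the lower differences most.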
